A study of Mus musculus with 14 samples.

Results

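The 9 genes described here, Cux1, Cux2, Rorb, Otof, Fezf2, Bcl11b, Etv1, Tbr1 and Foxp2, are used to tell the layers of the cerebral cortex apart. They were taken by symbol from 24444 genes in each of 2 tables, and were chosen with earlier results of these data known. Cux1, Cux2, Rorb and Otof were described as the 4 upper-layer genes, and Fezf2, Bcl11b, Etv1, Tbr1 and Foxp2 as the 5 deep-layer genes.

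Excitatory neurons of the cortex are born in an inside-out order and settle in layers that differ in their targets. Upper-layer neurons send axons mainly to other cortical areas, and layer 4 neurons receive input from the thalamus. Deep-layer neurons project out of the cortex, from layer 5 to brainstem and spinal cord and from layer 6 to the thalamus. Transcription factors that repress one another's programs set these identities during development, and many stay expressed in the adult. In dissected cortex their RNA reports both how many such neurons were sampled and how much RNA each one held, and these cannot be told apart here.

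Polyadenylated RNA of the cortex was sequenced from 14 mice in 2 mouse lines built around miR-29, microRNAs that rise as neurons mature. The miR29Nestin mice carried floxed alleles of both miR-29 clusters and Nestin-Cre, which acts in neural progenitors and so reaches neurons and glia together. Their cortex was taken at P40 from 3 mutants and from 3 miR29WT mice. The Dnmt3a-mi5 mice kept their miR-29 genes and carried, in every cell, a CRISPR knock-in that mutates 5 binding sites for miR-29 in the transcript of Dnmt3a, a DNA methyltransferase. Their cortex was taken at 4.5 months from 4 mutants and from 4 Dnmt3a-WT mice.

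Each table was tested on its own. Between 16667 and 18109 genes were above the zero level in a library, and libraries of a group correlated at 0.9953 to 0.9985. Dnmt3a, the check of the labels, stood at 5529 ± 300 (SD, n = 3) normalised counts in miR29Nestin and 1662 ± 59.3 (SD, n = 3) in miR29WT cortex. In the second model it stood at 2080 ± 151 (SD, n = 4) in Dnmt3a-mi5 and 1145 ± 84.6 (SD, n = 4) in Dnmt3a-WT cortex. Of the markers of excitatory neurons, all 6 were measured in both tables, with summed levels of 73030 to 99940 normalised counts per library. Y-linked genes placed 1 of 3 miR29Nestin and 2 of 3 miR29WT libraries as male. In the Dnmt3a table an additive effect with 2 levels had been removed between libraries before deposit, its read depth is unknown, and its libraries are numbered by column order only.

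The mature forms of the family share 1 seed, bases 2 to 8, shown in capitals because it is what pairs with a target.
miR-29a-3p: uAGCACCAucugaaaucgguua
miR-29b-3p: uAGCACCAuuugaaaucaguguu
miR-29c-3p: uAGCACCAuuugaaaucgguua
These are RefSeq sequences on GRCm38.p6. The first is encoded on chromosome 6, the third on chromosome 1 and miR-29b on both. The complement of the seed, TGGTGCT, was searched on the sense strand in the longest annotated 3′ UTR of each of the 9 genes (GENCODE M21, GRCm38). Bcl11b held 1 match and the other 8 genes held 0. The Bcl11b site lies in exonic 3′ UTR at chr12:107910856-107910862 on the minus strand, and is shown with its flanks because it is the 1 match among the 9 genes, with the match in capitals.
Bcl11b 3′ UTR: ttccgtgatttTGGTGCTttctgtgtctg
Of 21005 genes with an annotated 3′ UTR, 13.1% held the letters. Among UTRs within 25% of each gene's own length, the share was 52.4% for Cux1, 45.6% for Rorb, 39.2% for Bcl11b, 37.6% for Etv1, 34.3% for Cux2, 32.8% for Foxp2, 14.7% for Tbr1, 9.7% for Otof and 4.3% for Fezf2. A match is a description of letters and not a measured binding site.

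In miR29Nestin cortex, 4 of the 9 genes fell and none of the 9 rose. Otof, a marker of layers 2 and 3, fell most, by 2.09-fold, and Foxp2, Tbr1 and Fezf2 of the deep layers fell by 1.71-, 1.28- and 1.36-fold. The other upper-layer genes, Cux1, Cux2 and Rorb, did not pass the test. Calls are limma adjusted p values under 0.05 over all 12014 genes tested, of which 19.1% were called, 10.0% as lower and 9.02% as higher. An unadjusted p under 0.05 was found for 5 of the 9 layer genes and 33.0% of all genes tested. By layer, 1 of 4 upper-layer and 3 of 5 deep-layer genes were called lower. The median log2 difference was -0.14 for upper-layer genes, -0.32 for deep-layer genes and -0.01 for all genes tested. Differences are on the log2 scale of the deposited variance-stabilised values, which understates the change of weakly expressed genes.

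**Figure D1:**
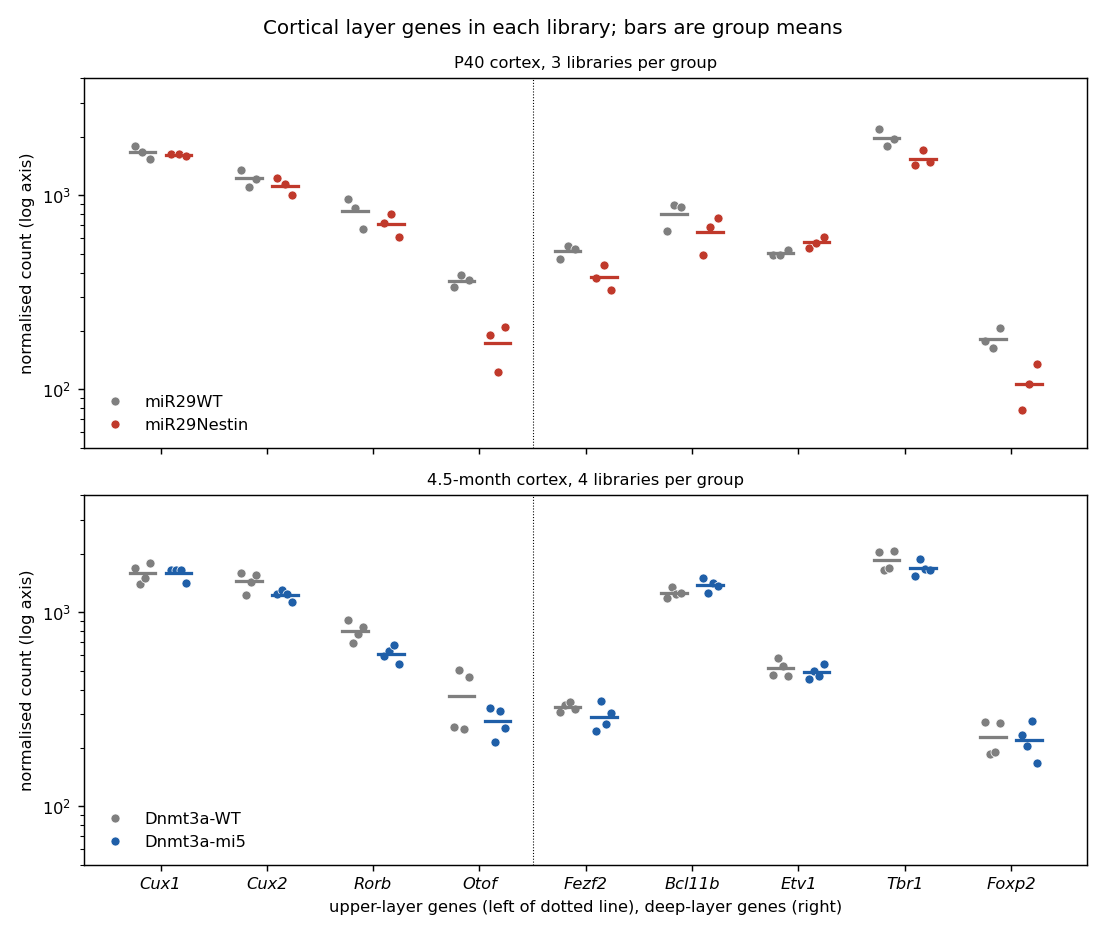
Normalised count of each layer gene (log axis) in every library, upper-layer genes left and deep-layer genes right of the dotted line, with group means as bars. In the P40 panel the miR29Nestin libraries of Otof, Fezf2, Tbr1 and Foxp2 lie below every miR29WT library, and in the 4.5-month panel the same holds for Rorb alone.

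Otof encodes otoferlin, the calcium sensor of vesicle release at hair cell synapses, and in cortex it marks neurons of layers 2 and 3. It stood at 190.4, 122.4 and 208.3 normalised counts in miR29Nestin libraries 1 to 3, and at 336.5, 387.0 and 363.9 in miR29WT libraries 1 to 3. The groups did not overlap, and means were 174 ± 45.3 (SD, n = 3) and 362.5 ± 25.3 (SD, n = 3). Otof was 2.09-fold lower in the mutant, with a log2 difference of -0.68 (SE 0.10, limma adjusted p = 0.001). Its difference was larger in size than that of 99.2% of all genes tested.

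Cux1 and Cux2 are paralogous homeodomain factors that shape dendrites and spines of upper-layer neurons. Cux1 stood at 1592 to 1639 normalised counts in miR29Nestin and at 1529 to 1794 in miR29WT libraries. The mutant libraries lay inside the wild-type range, and the log2 difference was -0.04 (SE 0.06, 95% interval -0.17 to 0.10, limma adjusted p = 0.726). The Cux1 row may also count reads of its alternative transcript CASP, a Golgi protein that shares exons with it. Cux2 ranged from 1000 to 1226 in miR29Nestin and from 1108 to 1353 in miR29WT libraries, so the groups overlapped. Its log2 difference was -0.11 (SE 0.08, 95% interval -0.28 to 0.07, limma adjusted p = 0.386).

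Rorb encodes a nuclear receptor of layer 4 neurons that takes part in barrel formation. It ranged from 608.3 to 802 normalised counts in miR29Nestin and from 672.5 to 953.4 in miR29WT libraries. The groups overlapped, and the log2 difference was -0.18 (SE 0.11, 95% interval -0.41 to 0.06, limma adjusted p = 0.276). The intervals of Cux2 and Rorb leave room for falls of up to 0.28 and 0.41 on the log2 scale.

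Of the deep-layer factors, Fezf2 and Bcl11b act in layer 5. Fezf2, a zinc-finger factor required for corticospinal neurons, stood at 376.0, 436.8 and 326.0 normalised counts in miR29Nestin libraries 1 to 3. In miR29WT libraries 1 to 3 it stood at 470.0, 546.0 and 527.3. The groups did not overlap, with means of 379.6 ± 55.5 (SD, n = 3) and 514 ± 39.6 (SD, n = 3) and a log2 difference of -0.32 (SE 0.08, limma adjusted p = 0.0174). Without miR29WT library 2 the adjusted p of Fezf2 was 0.0792, and without miR29WT library 3 it was 0.0649.

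Bcl11b, also called Ctip2, directs the growth of corticospinal axons and is strongly expressed in striatal neurons as well. It stood at 491.2, 687.0 and 763.3 normalised counts in miR29Nestin libraries 1 to 3, and at 656.0, 892.0 and 868.0 in miR29WT libraries 1 to 3. The groups overlapped, and library 1 was the lowest of both. The log2 difference was -0.26 (SE 0.13, limma adjusted p = 0.176). With the replicate number of the labels as a block, the same difference had a limma adjusted p of 0.00711.

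Etv1, an ETS-domain factor of layer 5 neurons also known as Er81, was the 1 gene of the 9 with a higher mutant mean. It stood at 535.0, 566.5 and 612.1 normalised counts in miR29Nestin libraries 1 to 3, and at 491.2, 493.2 and 521.6 in miR29WT libraries 1 to 3. The groups did not overlap, but the difference of 0.14 (SE 0.06) had a limma adjusted p of 0.128. Groups that did not overlap were found for 5 of the 9 layer genes, 1 higher and 4 lower in the mutant. Of all genes tested here, 37.3% had such groups, 18.6% higher and 18.7% lower.

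Tbr1 and Foxp2 mark layer 6. Tbr1, a T-box factor that specifies corticothalamic neurons, stood at 1424, 1714 and 1487 normalised counts in miR29Nestin libraries 1 to 3. In miR29WT libraries 1 to 3 it stood at 2199, 1803 and 1943. All mutant libraries were lower, and the log2 difference was -0.33 (SE 0.08, limma adjusted p = 0.0151). Without miR29WT library 1, the highest, it was -0.26 with an adjusted p of 0.0513.

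Foxp2, a forkhead factor of corticothalamic neurons and of the striatum, stood at 78.4, 106 and 134.5 normalised counts in miR29Nestin libraries 1 to 3. In miR29WT libraries 1 to 3 it stood at 177.0, 162.6 and 207.5. The groups did not overlap, and the mean was 1.71-fold lower in the mutant. The log2 difference was -0.41 (SE 0.09, limma adjusted p = 0.0116). Without miR29WT library 3 the difference was -0.35 and the adjusted p 0.0534.

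Bcl11b and Foxp2 are expressed in the striatum, which adjoins the cortex, so 12 markers of striatal projection neurons were summed in each library. None of the 12 was at 0 in every library, and 10 passed the filter. The sum was 7228, 11650 and 17050 normalised counts in miR29Nestin libraries 1 to 3 and 9417, 14180 and 16210 in miR29WT libraries 1 to 3. Bcl11b and Foxp2 were lowest in miR29Nestin library 1 and, within that group, highest in library 3, the order of the striatal sum. Within miR29WT neither gene followed that order. Bcl11b stood at 656.0, 892.0 and 868.0 and Foxp2 at 177.0, 162.6 and 207.5 in miR29WT libraries 1 to 3. Etv1 rose from library 1 to library 3 in both groups, as the sum did. No striatal marker was called in either direction. With the log2 striatal sum as a term, chosen after the values had been seen, Foxp2 was at -0.36 (limma adjusted p = 0.00318) and Bcl11b at -0.18 (limma adjusted p = 0.0417). In the same fit Etv1 was at 0.16 (limma adjusted p = 0.0446).

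**Figure D2:**
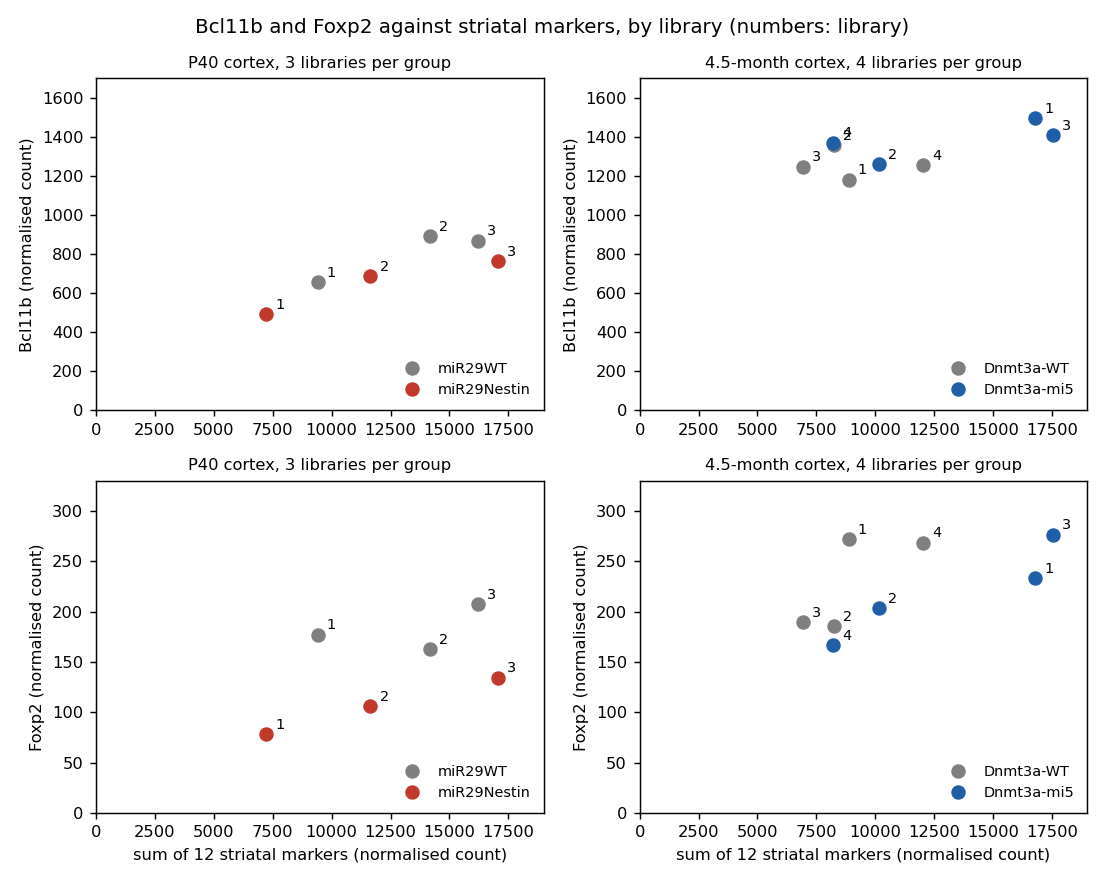
Normalised counts of Bcl11b (top) and Foxp2 (bottom) against the summed normalised count of 12 striatal markers, 1 point per library, numbered within its group. At P40 the striatal sum spans 7228 to 17050 and Foxp2 of each miR29Nestin library lies below every miR29WT library. At 4.5 months 2 Dnmt3a-mi5 libraries have the highest sums.

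In Dnmt3a-mi5 cortex none of the 9 genes passed the test. Of 10670 genes tested, 0.797% were called, 0.225% as higher and 0.572% as lower, and 19.0% had an unadjusted p under 0.05. Cux2, Rorb and Bcl11b, 3 of the 9, had an unadjusted p under 0.05 by limma. Rorb was the 1 gene whose groups did not overlap, lower in the mutant. Of all genes tested in that comparison, 12.0% had such groups, 5.33% higher and 6.67% lower. The median log2 difference was -0.19 for the upper-layer genes, -0.04 for the deep-layer genes and 0.00 for all genes tested.

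Rorb stood at 596.0, 629.9, 678.4 and 541.5 normalised counts in Dnmt3a-mi5 libraries 1 to 4. In Dnmt3a-WT libraries 1 to 4 it stood at 910.2, 697.4, 770.2 and 841.7. Each mutant library was below the lowest wild-type library. Means were 611.5 ± 57.6 (SD, n = 4) and 805 ± 91.7 (SD, n = 4), with a log2 difference of -0.27 (SE 0.06, 95% interval -0.41 to -0.14, limma adjusted p = 0.067).

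Cux2 stood at 1245, 1302, 1246 and 1136 normalised counts in Dnmt3a-mi5 libraries 1 to 4. In Dnmt3a-WT libraries 1 to 4 it stood at 1586, 1223, 1433 and 1549. Wild-type library 2 lay within the mutant range and the other 3 above it. The log2 difference was -0.18 (SE 0.06, 95% interval -0.32 to -0.04, limma adjusted p = 0.151). Without Dnmt3a-WT library 2, Cux2 was at -0.24 with a limma adjusted p of 0.0288, and Rorb at -0.32 with 0.025.

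Otof varied most among the wild-type libraries of this table, at 255.9, 503.1, 251.9 and 464.3 normalised counts in Dnmt3a-WT libraries 1 to 4. The Dnmt3a-mi5 libraries 1 to 4 stood at 320.9, 215.5, 310.3 and 252.3. The wild-type libraries formed a high and a low pair, and all 4 mutant libraries lay below the high pair. The log2 difference was -0.21 (SE 0.13, 95% interval -0.49 to 0.07, limma adjusted p = 0.412). Cux1 differed by -0.00 (95% interval -0.15 to 0.14, limma adjusted p = 0.985), with 1420 to 1654 normalised counts in mutant and 1399 to 1802 in wild-type libraries.

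Among the deep-layer genes, Bcl11b stood at 1496, 1259, 1410 and 1370 normalised counts in Dnmt3a-mi5 libraries 1 to 4. In Dnmt3a-WT libraries 1 to 4 it stood at 1181, 1357, 1247 and 1254. Mutant libraries 1, 3 and 4 were above every wild-type library, and library 2 was within their range. The log2 difference was 0.11 (95% interval 0.00 to 0.21, limma adjusted p = 0.247). The striatal sum was 16790, 10170, 17540 and 8218 in Dnmt3a-mi5 libraries 1 to 4 and 8878, 8226, 6942 and 12040 in Dnmt3a-WT libraries 1 to 4. Its part in the Bcl11b difference was not tested apart from the fit with that sum as a term, in which no layer gene passed the threshold.

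Fezf2 ranged from 243.4 to 350.0 normalised counts in mutant and from 305.9 to 345.1 in wild-type libraries of this table. Etv1 ranged from 453.1 to 539.8 and from 467.8 to 581.9, Tbr1 from 1530 to 1874 and from 1649 to 2077, and Foxp2 from 166.9 to 276.8 and from 185.6 to 272.3, mutant first. All 4 genes overlapped between groups, with log2 differences of -0.09, -0.04, -0.12 and -0.03 in that order and limma adjusted p values from 0.394 to 0.897. Intervals for these genes reached from -0.28 for Tbr1 to 0.15 for Foxp2.

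**Figure D3:**
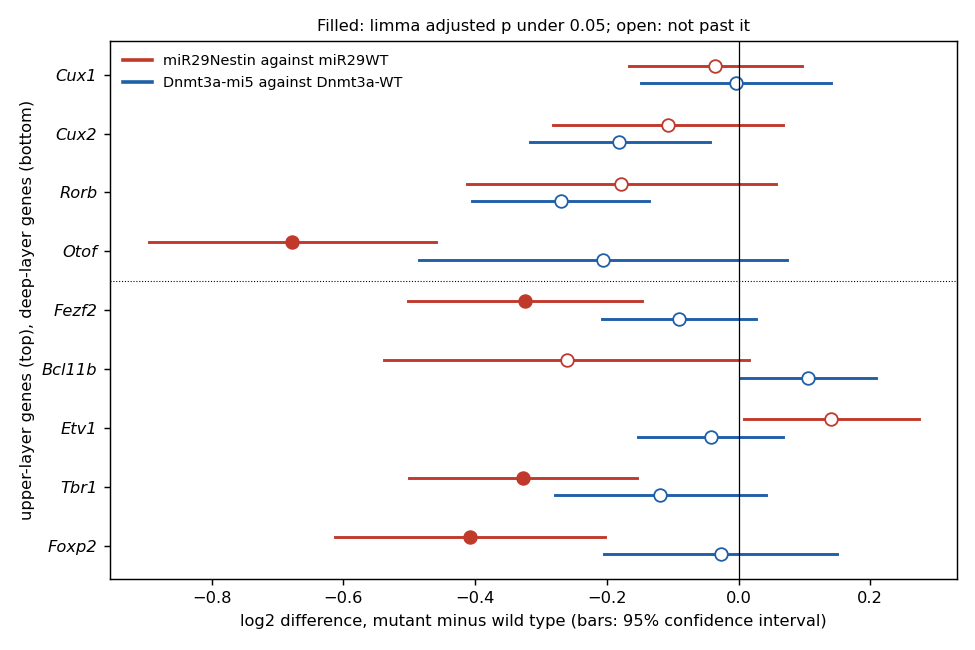
Log2 difference of mutant minus wild type for each layer gene, with its 95% confidence interval, in both comparisons; filled points have a limma adjusted p under 0.05. The filled points are Otof, Fezf2, Tbr1 and Foxp2 in miR29Nestin cortex, at -0.68, -0.32, -0.33 and -0.41.

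Side by side, 7 of the 9 genes had a mean below wild type in both comparisons, and Bcl11b and Etv1 differed in sign. Of all genes tested, 6186 of 12014 lay below 0 in miR29Nestin and 5201 of 10670 in Dnmt3a-mi5 cortex. Among the 7, the sign of Cux1 turned in both tables when 1 library was left out, and that of Foxp2 in the Dnmt3a table. Whether a gene's difference was unlike between the models was not tested, because the tables were normalised separately and differ in age, RNA kit and library kit. Otof differed by -0.68 in miR29Nestin and -0.21 in Dnmt3a-mi5 cortex, and Rorb by -0.18 and -0.27.

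Per kilobase of the longest coding transcript, Tbr1 had the highest level of the 9 genes in every group. It stood at 498 ± 50.4 (SD, n = 3) normalised counts per kilobase in miR29WT and 388 ± 38.4 (SD, n = 3) in miR29Nestin cortex. In the other table it stood at 469 ± 58.2 (SD, n = 4) in Dnmt3a-WT and 424 ± 35.7 (SD, n = 4) in Dnmt3a-mi5 cortex. Its libraries did not overlap those of the next gene in any group. In miR29WT cortex the order of mean levels per kilobase was Tbr1, Fezf2, Cux2, Cux1, Bcl11b, Rorb, Etv1, Otof and Foxp2. Neighbours overlapped between Cux2 and Cux1, between Bcl11b and Rorb and between Rorb and Etv1. Foxp2 had the lowest mean in all 4 groups, at 27.0 ± 3.39 (SD, n = 3) per kilobase in miR29WT and 15.7 ± 4.15 (SD, n = 3) in miR29Nestin cortex. Its libraries overlapped those of Otof in every group but miR29WT. With the median transcript length instead, Tbr1 stayed first, Fezf2 moved from rank 2 to rank 6 in miR29WT cortex, and Otof and not Foxp2 was last.

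In the genome (GRCm38), Cux1 lies at chr5:136248135-136567490, Cux2 at chr5:121856366-122050102 and Otof at chr5:30367062-30461932, all on the minus strand. Rorb lies at chr19:18930605-19111196, Fezf2 at chr14:12342094-12348189 and Bcl11b at chr12:107910403-108003602, also on the minus strand. Etv1 lies at chr12:38779380-38870484, Tbr1 at chr2:61802930-61814114 and Foxp2 at chr6:14901349-15441977, on the plus strand. All 9 are annotated as protein-coding. Cux1 and Cux2 overlap annotated antisense genes, so their values rest on strand having been kept in the counting, which was not tested. Cux1 and Foxp2 also overlap annotated genes on their own strand, microRNA genes among them, which strand does not set apart.

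The wider layer programs were described from lists of other genes, without the 9. These lists were also chosen with earlier results of these data known. Of all genes tested, 10.0% were called lower and 9.02% higher in miR29Nestin cortex, and 0.572% and 0.225% in Dnmt3a-mi5 cortex. In miR29Nestin cortex, 6 of 16 other upper-layer genes fell and 1 rose (median log2 difference -0.14). Rasgrf2, a Ras exchange factor, went from 2191 ± 210.1 (SD, n = 3) to 1433 ± 139 (SD, n = 3) normalised counts, a log2 difference of -0.56 (limma adjusted p = 8.42e-04). The calcium-binding Calb1 differed by -0.48, Unc5d by -0.41, Mdga1 by -0.52 and Plxnd1 by -0.27. Stard8 was the gene that rose, by 0.23, and is named after its value was seen. In Dnmt3a-mi5 cortex 1 of 16 fell, the netrin receptor Unc5d, at -0.31 (limma adjusted p = 0.0495).

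Genes listed here under layer 4 moved in both directions in miR29Nestin cortex, with 2 of 6 higher and 2 lower. The placing of listed genes in a layer was not tested, so these counts describe the lists and not the layers. Endou rose from 44.0 ± 5.09 (SD, n = 3) to 211 ± 23.9 (SD, n = 3) normalised counts, a 4.80-fold difference (log2 1.02, limma adjusted p = 9.32e-06). Hsd11b1, which makes active glucocorticoid, rose by 0.63 on the log2 scale, while Kcnh5 and Whrn fell by 0.25 each. Of 14 other layer 5 genes tested, 3 rose and 3 fell. The risers were Pcp4 (0.22), Deptor (0.31) and Sulf2 (0.21), and the genes that fell were Ldb2 (-0.33), Fam84b (-0.28) and Tcerg1l (-0.22). Without miR29Nestin library 2, miR29WT library 2 or miR29WT library 3, 0 genes of the layer 4 list were called lower, and 1 without any of the other 3 libraries. For layer 5, 1 gene was called higher without miR29Nestin library 2 or miR29WT library 2, and 1 was called lower without miR29Nestin library 1, miR29WT library 1 or miR29WT library 2.

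Of 14 other genes of layer 6 and the subplate tested, 7 were called lower and 1 higher in miR29Nestin cortex (median log2 difference -0.29). The neurotensin receptor Ntsr1, a marker of corticothalamic neurons, went from 204 ± 5.32 (SD, n = 3) to 83.9 ± 20.2 (SD, n = 3) normalised counts, 2.43-fold lower (log2 difference -0.65, limma adjusted p = 2.71e-04). Sox5, a factor that restrains layer 5 fate in layer 6 neurons, differed by -0.53, Hs3st4 by -0.30, Cplx3 by -0.36 and Syt6 by -0.54. The gene that rose was Ctgf, a marker of the deepest layer, by 0.27. Without miR29WT library 2 the number called lower was 3 of 14. In Dnmt3a-mi5 cortex none of 13 genes tested was called (median -0.02), and 2 had an unadjusted p under 0.05, beside 19.0% of all genes tested.

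Of 26 other transcription factors of projection neurons tested, 13 fell and 3 rose in miR29Nestin cortex (median log2 difference -0.23). Zbtb18 differed by -0.87, Mef2c by -0.72, Bhlhe22 by -0.56 and Nr2f1 by -0.48. Those that rose were Nfia (0.42), Bhlhe40 (0.35) and Rora (0.31), the last 2 named after their values were seen. In Dnmt3a-mi5 cortex 1 of 26 fell, Mef2c, from 8364 ± 760 (SD, n = 4) to 6237 ± 591 (SD, n = 4) normalised counts (log2 difference -0.40, limma adjusted p = 0.0473). The calls of Unc5d and Mef2c in that table were each lost without 7 of the 8 libraries, left out in turn, with adjusted p values up to 0.134. Both were also lost with a term for the 2-level effect removed from this table (limma adjusted p = 0.114 each) and with no filter on low values (0.0609 for Unc5d and 0.0577 for Mef2c).

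**Figure D4:**
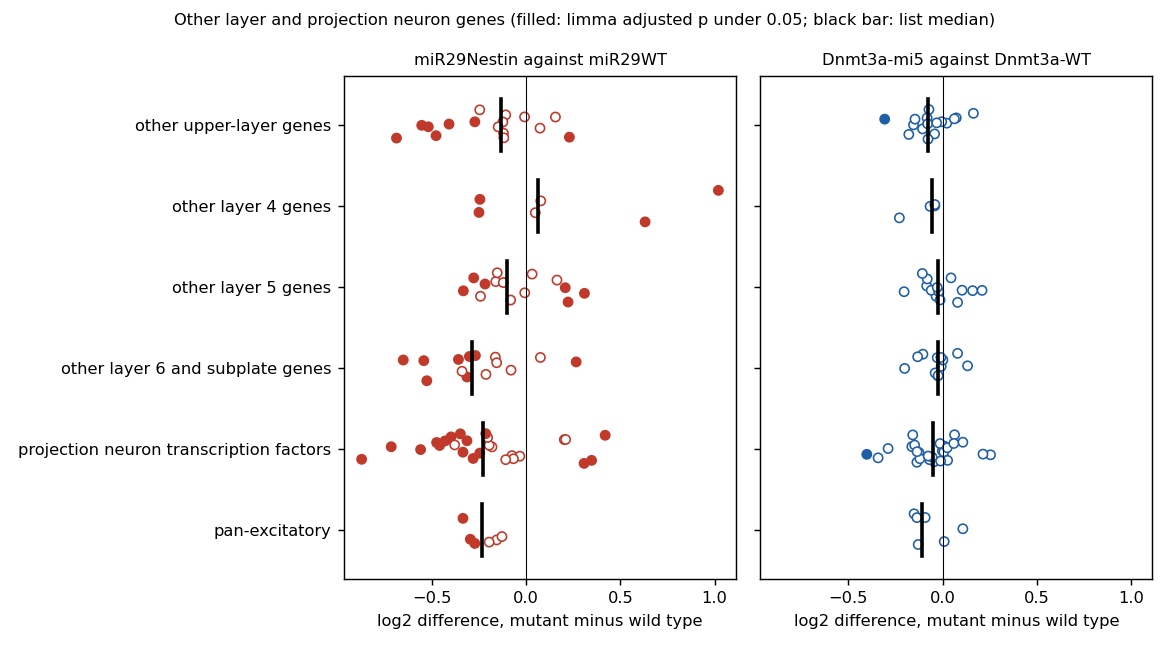
Log2 difference of mutant minus wild type for each tested gene of 6 lists, 1 point per gene, filled where the limma adjusted p was under 0.05, with the list median as a black bar. In miR29Nestin cortex the medians lie between -0.29 and 0.06, and in Dnmt3a-mi5 cortex between -0.11 and -0.02.

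Of 6 markers shared by all excitatory neurons, 3 fell in miR29Nestin cortex and the other 3 did not pass the test. Those that fell were the vesicular glutamate transporter Slc17a7 (-0.27), Neurod2 (-0.34) and the postsynaptic calmodulin-binding Nrgn (-0.30). In the blocked fit 5 of these markers were called lower. Neurod2 is also on the list of projection neuron factors. Their sum was 75160 to 82010 normalised counts in miR29Nestin and 87870 to 99940 in miR29WT libraries, without overlap. In the Dnmt3a table it was 73030 to 82350 in mutant and 77710 to 87130 in wild-type libraries, and none of the 6 was called. Markers of astrocytes summed to 65180 to 70780 in miR29Nestin and 60150 to 62040 in miR29WT libraries, with 4 of 9 called higher and 1 lower. In the Dnmt3a table the astrocyte sum was lower in the mutant, at 61650 to 63930 against 69360 to 73580 in wild-type libraries, with 1 of 9 called lower. That marker was Slc1a2, the most abundant share of the sum, with means of 41630 against 49580 normalised counts. The median log2 difference of the 9 markers was -0.03.

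Of all single genes tested at P40, 37.3% had groups that did not overlap, 9.02% were called higher and 10.0% lower. Sums of other cell type markers that did not overlap at P40 were higher in miR29Nestin libraries for oligodendrocyte precursors, at 4409 to 4830 against 3747 to 4191 normalised counts, with 2 of 5 called higher. Those of leptomeningeal fibroblasts were also higher, at 548.0 to 711 against 329.8 to 518.5, with 3 of 5 tested markers called higher. Lower in the mutant were the sums of thalamic neurons (567.5 to 638.9 against 639.3 to 696.1), dentate granule cells (183.1 to 194.5 against 203.2 to 220.9) and pan-neuronal markers (96790 to 97890 against 98610 to 104200). On the thalamic list 4 of 7 markers were tested and 1 was called, Calb2, with means of 59.7 against 121.4 normalised counts. On the dentate list 3 of 5 were tested and 1 was called, Prox1, with means of 59.6 against 85.5. Of 7 pan-neuronal markers, 2 were called lower and 1 higher. Oligodendrocyte sums overlapped, at 106100 to 118500 against 97310 to 108400, with 2 of 7 markers called higher. Several of these calls were lost when 1 library was left out. Without miR29WT library 2, limma adjusted p values were 0.116 for Olig1, 0.0561 for Mbp, 0.0771 for Col1a1, 0.0999 for Col1a2 and 0.1315 for Prox1. The call of Prox1 was also lost with no filter on low values (limma adjusted p = 0.0613). Pan-neuronal Syt1 lost its call without miR29Nestin library 2 (limma adjusted p = 0.0617). In the Dnmt3a table the microglial sum did not overlap either, at 2381 to 2719 in mutant and 2749 to 2905 in wild-type libraries. Of all single genes tested in that table, 12.0% had such groups. The part of cell composition in the layer genes' differences was not tested.

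Among all 14 libraries, each table centred on its mean and scaled, Cux2 and Rorb varied most alike of the 36 pairs of layer genes (Pearson r = 0.81). Cux2 and Tbr1 followed at 0.73 and Rorb and Tbr1 at 0.70, and Cux1 and Etv1 were most opposed at -0.75. Among 10610 genes compared, those most like Otof were Dhx57 (0.945) and Pak6 (0.936), and those most like Rorb were Dusp6 (0.925) and Igip (0.924). For Bcl11b they were Galnt7 (0.971) and N4bp1 (0.963), for Etv1 Atp6v1a (0.972) and Dnajc3 (0.924), and for Tbr1 Kcnmb4 (0.95) and Daglb (0.937). For Foxp2 they were Ppp1r9a (0.954) and Zfp827 (0.943), for Cux2 Rgs4 (0.927) and Dact2 (0.919), for Fezf2 Pno1 and Chp1 (0.917 each), and for Cux1 Zfp384 (0.852) and Lama3 (0.846). These correlations describe 14 libraries that share dissection and genotype, and carry no test.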

How the data were processed

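The authors deposited 1 table per model, each with 24444 genes, as log2-scale values of the variance-stabilising transformation of DESeq2. The libraries were stranded, paired-end and polyadenylated, per the labels' protocols. Tools named in the submitters' processing notes are DESeq2, Salmon, STAR and cutadapt, with no version, and the builds are hg19 and mm9. Normalised totals per library ranged from 10165644 to 12000028. Normalised counts were recovered by inverting the transformation at each table's zero level of 6.5861 or 7.6295. In the Dnmt3a table, means of 2 sets of 4 libraries were equal within 5.5e-09 for every gene, so an effect with 2 levels had been removed, and its recovered counts are approximate.

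Each table was tested with limma 3.58.1 in R 4.3.3 (mean-variance trend, Benjamini-Hochberg adjustment) on the deposited values. Genes were tested with a mean at least 1 above the lowest value, near 48.0 and 80.1 normalised counts. Calls were made at an adjusted p under 0.05. All 9 layer genes passed this filter in both tables. The fit was tested on simulated data. The labels say nothing of litters or batches. Replicates 1 to 3 of the miR29 groups share numbers, and same-numbered libraries deviated together (r = 0.335, 0.204 and 0.186). The main fit was unpaired, and the replicate number as a block was an alternative. Unless a block or another term is named, calls and p values come from the unpaired fit. The Dnmt3a columns repeat their replicate numbers, so these name no single mouse. The sets of the removed effect coincide with the first and second occurrence of each repeated column name. In the miR29 table p values measure the spread between these mice. In the Dnmt3a table the removed effect is missing from that spread and the main fit has no term for it. P values of that table may therefore be too small, and counts with such a term are given below.

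The 9 genes, the lists and the rules were chosen with earlier results of these data known. From each other list the called genes with the smallest p were named, up to 6 per table, and for likeness the 2 genes with the highest r. Some genes that this rule names are not reported here. Alternatives covered the filter, variance prior, scale, centring, sex, the removed effect, the block and leaving out each library. Summaries used Python 3.11.15, numpy 2.4.6 and pandas 2.3.3.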

Additional observations from a re-analysis of the deposited data

Results flagged for a closer look

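Of the 18 groups of 4 values tested for the layer genes in the Dnmt3a table, 1 had a library apart from the rest. Cux1 stood at 1420 normalised counts in Dnmt3a-mi5 library 4, against 1643 to 1654 in the other 3 libraries of its group, a gap above Dixon's 95% critical value of 0.829 of the range. Chance flags about 1 in 20 such groups. Without that library the log2 difference of Cux1 was 0.04.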

How the results depend on the processing

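In miR29Nestin cortex the number of genes called was 2289, and 1384 to 2313 without 1 library, lowest without miR29WT library 2. The number of layer genes called was 4, and 2 to 4 without 1 library, lowest without miR29WT library 3, from which the calls of Fezf2 and Foxp2 were lost. Otof stayed called under all 15 alternatives, from -1.09 to -0.55. Cux1 ranged from -0.09 to 0.014 without 1 library, above 0 without miR29WT library 1. With the replicate block 3037 genes were called. The block added Bcl11b and changed no other call of the 9 genes. The term for sex added it too (-0.37, limma adjusted p = 0.0197).

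In Dnmt3a-mi5 cortex 85 genes were called, 25 with no filter, 13 with a term for the removed effect, 41 with the striatal sum as a term and 9 to 176 without 1 library. The number of layer genes called was 0, and 0 to 2 without 1 library. Cux1 ranged from -0.054 to 0.045 and Foxp2 from -0.083 to 0.03 without 1 library, both above 0 without Dnmt3a-WT library 1, Dnmt3a-WT library 4 or Dnmt3a-mi5 library 4. Etv1 turned to 0.027 with the striatal sum as a term. The causes were not tested. No paired analysis was possible because the columns of that table carry no unique replicate numbers. Of the other genes named, Rasgrf2, Calb1, Unc5d, Endou, Hsd11b1, Pcp4, Ntsr1, Sox5 and Hs3st4 stayed called in miR29Nestin cortex without any 1 library. Mdga1, Plxnd1, Stard8, Bhlhe40, Kcnh5, Whrn, Deptor, Sulf2, Ldb2, Fam84b, Tcerg1l, Cplx3, Syt6 and Ctgf each lost their call without at least 1. With 3 or 4 mice a group, 95% intervals of layer genes not called reached from -0.54 (Bcl11b) to 0.27 (Etv1), both in the miR29 table.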

Other observations

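Markers of inhibitory neurons changed in both directions in miR29Nestin cortex, where 2 of 12 rose and 3 fell. Of all genes tested there, 9.02% were called higher and 10.0% lower. Pvalb, a calcium-binding protein of basket cells, rose from 748 ± 73.0 (SD, n = 3) to 1411 ± 71.8 (SD, n = 3) normalised counts, a log2 difference of 0.78 (limma adjusted p = 4.29e-05). Reln, an extracellular guide of neuron migration that many interneurons make in the adult, fell from 780 ± 53.6 (SD, n = 3) to 409 ± 50.3 (SD, n = 3), a log2 difference of -0.72 (limma adjusted p = 1.20e-04). Of the enzymes that make GABA, Gad1 rose by 0.23 and Gad2 fell by 0.52 on the log2 scale, and the neuropeptide Sst fell by 0.48. These 5 calls held without any 1 library. In Dnmt3a-mi5 cortex none of 11 interneuron markers was called by limma, and 4 had an unadjusted p under 0.05, beside 19.0% of all genes tested.

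Among 9 astrocyte markers, 4 rose in miR29Nestin cortex, Gjb6 by 0.64, Gfap by 0.54, Gja1 by 0.38 and Slc1a2 by 0.16 on the log2 scale, and Slc1a3 fell by 0.17. The calls of Slc1a2 and Slc1a3 were each lost without at least 1 library. In Dnmt3a-mi5 cortex 1 of the 9 fell, the glutamate transporter Slc1a2, by 0.25 (limma adjusted p = 0.0478), a call lost without 7 of 8 libraries. In the same cortex 2 of 5 microglial markers fell, the fractalkine receptor Cx3cr1 by 0.24 (limma adjusted p = 0.00919) and the purinergic receptor P2ry12 by 0.30 (limma adjusted p = 0.0495). The call of Cx3cr1 held without any 1 library, and that of P2ry12 was lost without 7 of 8. In miR29Nestin cortex none of 6 microglial markers was called by limma, and 1 had an unadjusted p under 0.05, beside 33.0% of all genes tested.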
